A study of Mus musculus with 4 samples.

Results

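Border-associated macrophages (BAMs) were selected from single-cell libraries of the mouse brain by the transcripts of 6 genes: a cell needed 1 or more UMIs of Mrc1, and F13a1, Cbr2, Lyve1, Cd163 and Pf4 had to sum to 3 or more UMIs. A UMI is a tag that lets each captured RNA molecule be counted once. Cells were first kept if they had 200 to 6000 genes and no more than 10% of UMIs from mitochondria. Of the 40869 kept, 476 met the rule, and these are called members below. Because these 6 genes chose the members, their levels in members are given as a description and with no test.

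The libraries came from 2 PRMT1FL mice, which carry floxed Prmt1 alleles without the driver, and 2 PRMT1Cx3cr1-KO mice (PRMT1FL/FL; Cx3cr1-CreERT), all on the C57BL/6 background and 1 library per mouse. All mice received tamoxifen, which activates the recombinase, and then cuprizone (CPZ), a copper chelator that strips myelin from the brain, at 0.2% of the diet for 5 wk. The labels give an age of 5 to 6 wk for the diet, while the study's methods give it for tamoxifen. Brain cells were sorted for CD45 and CD11b, a gate that microglia, BAMs, monocytes and neutrophils can all pass, and tissue dissociation and this sort set which BAMs were captured. The Cx3cr1 promoter, which drives the recombinase, is known to be active in microglia and in other macrophages, and how far Prmt1 was deleted in BAMs was not measured.

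BAMs are resident macrophages of the meninges, the perivascular space and the choroid plexus, outside the brain tissue in which microglia live. They take up proteins, sugars and haemoglobin from fluid through scavenger and lectin receptors such as Mrc1 (the mannose receptor, CD206), Cd163 (the haemoglobin-haptoglobin receptor), Lyve1 (a hyaluronan receptor) and Stab1 (stabilin-1). A part of them carries MHC class II, which presents peptides from engulfed proteins to CD4 T cells. PRMT1 is the enzyme that places most asymmetric dimethylarginine on proteins, histones included.

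Members numbered 132 of 11427 passing cells in PRMT1FL mouse 1 and 99 of 8170 in PRMT1FL mouse 2. They numbered 83 of 10370 in PRMT1Cx3cr1-KO mouse 1 and 162 of 10902 in PRMT1Cx3cr1-KO mouse 2. The whole libraries held 91306165, 76943248, 85874289 and 99559644 UMIs in this order of mice (used throughout: PRMT1FL mice 1 and 2, then PRMT1Cx3cr1-KO mice 1 and 2), and the members' summed UMIs were 1109059, 1122917, 876341 and 2376536. The median member had 4216, 7059, 5745 and 12557.5 UMIs, against 6066, 6923, 6232.5 and 6959.5 in all passing cells. PRMT1Cx3cr1-KO mouse 2 thus stood apart: its members were deeper than those of the other 3 mice. Any 2 libraries shared 31 to 46 cell barcodes, none of them between members.

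The 6 genes of the rule were all far higher in members than in other cells of the same library. Mrc1 was at 651, 550.4, 499.8 and 309 UMIs per 1000000 UMIs of the summed cells (CPM) in members and at 1.52 to 4.09 CPM in other cells. Pf4, a platelet-type chemokine that macrophages also make, was at 1004, 958, 621 and 519 CPM in members against 16.2, 17.8, 32.2 and 90.1 CPM in other cells. F13a1, the A chain of clotting factor XIII, was at 331, 289, 212 and 125 CPM in members. Cbr2, a carbonyl reductase, was at 164, 149.6, 69.6 and 41.7 CPM, Lyve1 at 161, 70.4, 87.9 and 55.1 CPM, and Cd163 at 142, 108, 74.2 and 58.1 CPM, all in members. All 6 were lowest in PRMT1Cx3cr1-KO mouse 2, and Lyve1 was the single one for which the PRMT1FL and PRMT1Cx3cr1-KO ranges overlapped. In the PRMT1FL libraries, where 25 and 43 neutrophils were found, 4.0% and 0% of neutrophils held an Mrc1 UMI, at a median of 3192 and 5354 UMIs per cell. The 0 of 43 neutrophils allow a share with a detected Mrc1 UMI of up to 6.98% by counting error alone. This bounds detection at that depth and not the share of cells that express Mrc1. The genes lie on chromosomes 2 (Mrc1, 14229392 to 14332057), 13 (F13a1, 36867178 to 37050244), 11 (Cbr2, 120729489 to 120732114), 7 (Lyve1, 110850607 to 110863239), 6 (Cd163, 124304656 to 124330527) and 5 (Pf4, 90772435 to 90773383) of mm10.

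At the edge of the rule, 15, 8, 14 and 22 cells had a sum of exactly 3 and 19, 8, 15 and 41 cells with Mrc1 stopped at 2. The BAM gene Ms4a7, which the rule did not use, was at 204, 402, 285 and 237 CPM just inside and at 131, 319, 130.1 and 159 CPM just outside. Cells with a sum of 3 or more but no Mrc1 UMI, which the rule left out, numbered 111, 116, 263 and 1047. They were deep cells, with a median of 15919, 17030, 14985 and 13944 UMIs, and 81.4% to 97.6% of their summed UMIs were of Pf4.

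The label was checked against 12 further BAM genes and 9 microglial genes. The 12 BAM genes summed to 3186, 2844, 2316 and 1886 CPM in members and to 698, 691, 687 and 904 CPM in other cells. The 9 microglial genes, however, summed to 3417, 3974, 3776 and 3894 CPM in members against 4441, 4760.4, 4136 and 4486 CPM in other cells. All 9 were detected in members, and the one with most UMIs was Cx3cr1, the fractalkine receptor, at 1330.0, 1564, 955 and 1023 CPM in members. The members as a whole were therefore not free of microglial transcripts, and the name border-associated macrophage holds for a part of them.

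To describe the members further, they were split after their values were seen. The split was at 20 UMIs of the 9 microglial genes (P2ry12, Tmem119, Sall1, Siglech, Gpr34, Cx3cr1, P2ry13, Olfml3 and Slc2a5 together) per 10000 UMIs. It does not set BAMs apart, since the cells below it were not uniform in BAM genes, as described below. Members below this level are called microglia-low and numbered 58, 33, 28 and 42, and the remaining microglia-high members numbered 74, 66, 55 and 120. Within 15 to 25 such UMIs per 10000 lay 25, 10, 15 and 31 cells, so that the split cuts a range and not a gap. Microglia-low members had a median of 2908.5, 3432, 3824.5 and 4504 UMIs, and microglia-high members 8245, 13466.5, 10260 and 16586. Cells marked as doublets, those whose profile looks like 2 cells in 1 droplet, made up 5.17%, 0%, 3.57% and 0% of microglia-low members and 36.5%, 12.1%, 25.5% and 31.7% of microglia-high members, against 9.15%, 6.54%, 8.29% and 8.72% of all passing cells. The part of doublets in the microglia-high members was not tested beyond this.

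**Figure D1:**
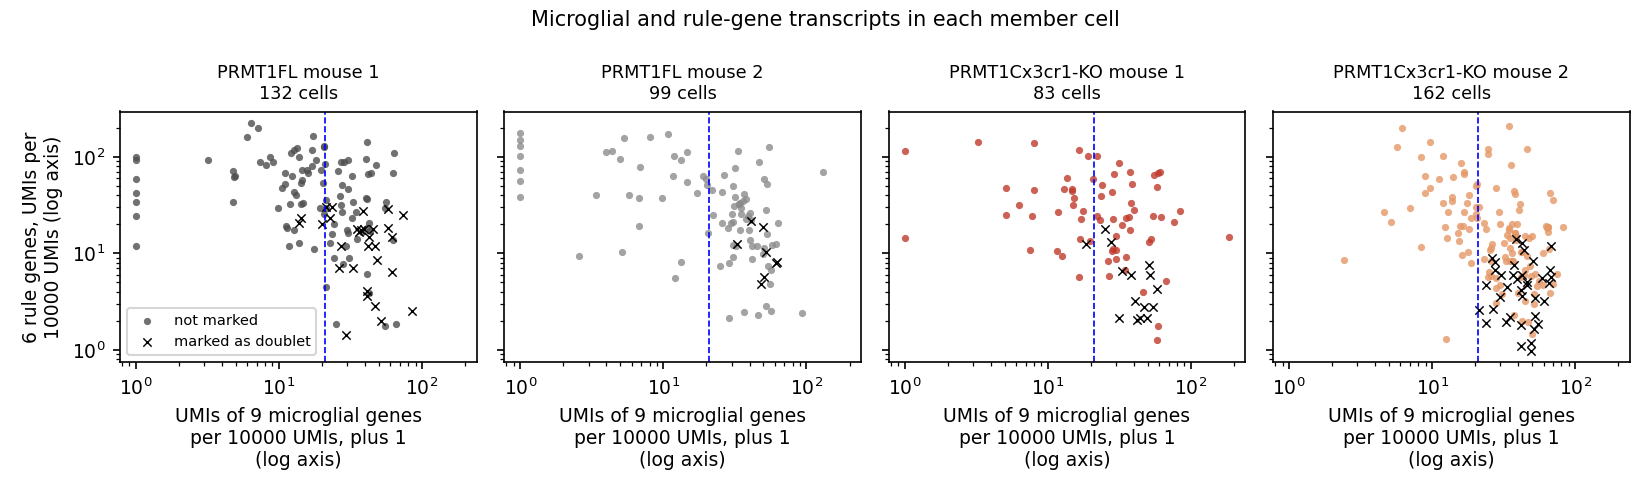
Each point is 1 member cell in its mouse. The x axis gives UMIs of the 9 microglial genes per 10000 UMIs plus 1 and the y axis the 6 rule genes' UMIs per 10000 UMIs, both on log axes, crosses are cells marked as doublets and the dashed line is the split at 20 microglial UMIs per 10000. The cells with most rule-gene UMIs lie mostly left of the line, and nearly all doublet marks lie right of it.

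BAM genes, which the split did not use, followed it. The 12 further BAM genes had a median of 74.4, 64.7, 41.8 and 31.9 UMIs per 10000 in microglia-low members and of 24.8, 25.3, 24.6 and 15.8 in microglia-high members. They summed to 6314, 6385, 3787 and 3604 CPM in microglia-low members and to 2444, 2329.7, 2048 and 1661 CPM in microglia-high members. The 9 microglial genes, which made the split, had a median of 11.5, 5.80, 12.3 and 12.9 UMIs per 10000 in microglia-low members and of 36.8, 38.2, 37.0 and 38.6 in microglia-high members. In other cells this median was 39.0, 42.3, 38.0 and 41.6, and it was 0 in the neutrophils of both PRMT1FL mice. Tmem119, a microglial surface protein, was at 32.9, 42.1, 66.6 and 94.6 CPM in microglia-low members, and Sall1, the transcription factor that defines microglia, at 14.1, 0, 51.8 and 10.9 CPM. The microglia-low members were not uniform in BAM genes, and the 2 kinds of cell among them are described further below.

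Outside the rule, 20 genes led in members over other cells, ranked by the log2 ratio of CPM plus 1 in each library. They included 6 lectin receptors, a group named after the values were seen: Mgl2 (a galactose-type lectin of macrophages) stood 5.38 to 6.74 log2 units above other cells over the 4 libraries, Cd209f 4.80 to 5.55, Clec4n (dectin-2) 3.52 to 5.68, Clec10a 3.11 to 6.33, Clec4a1 3.40 to 4.92 and Clec12a 2.49 to 5.09. The chemokines Ccl7 (4.47 to 6.51), Ccl8 (2.10 to 6.19) and Ccl24 (3.58 to 4.77) and the monocyte chemokine receptor Ccr2 (2.88 to 4.01) were also among the 20. So were the MHC class II genes H2-Eb1 (3.42 to 4.86) and H2-Aa (2.91 to 4.87). The other 8 were Cd93, Ccn1, Ifi203, Cd38, Mndal, Cp, F630028O10Rik and Stap1. All of these are differences in level and follow from how members were chosen. The ratios were lowest in PRMT1Cx3cr1-KO mouse 2 for all of the 20 genes except Cd209f, H2-Eb1, H2-Aa and Ccr2.

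Markers of other blood and brain cells were mostly scarce in members, but monocyte and dendritic cell genes stood above their level in other cells. The 5 lymphocyte genes were at 0 in members of all 4 libraries. Of 6 neutrophil genes, Retnlg, Ly6g, Camp and Ngp were at 0, and the list summed to 0, 1.78, 2.28 and 2.95 CPM with S100a8 as its main gene. Of 6 monocyte genes, Chil3 and Vcan were at 0, and Ccr2 was nearly the whole of the sum of 58.6, 45.4, 89.0 and 77.8 CPM, which was above the 11.8, 28.5, 6.25 and 13.1 CPM of other cells. In microglia-low members the monocyte genes summed to 155, 112, 370 and 218 CPM, higher in both PRMT1Cx3cr1-KO mice, and their part in the genotype differences below was not tested. The 7 dendritic cell genes summed to 17.1, 8.01, 14.8 and 12.2 CPM, mostly Cd209a except in PRMT1FL mouse 2, with Xcr1 and Ccr7 at 0. This was above the 4.58, 5.48, 1.88 and 1.68 CPM of other cells. In microglia-low members the dendritic cell genes summed to 56.4, 14.0, 22.2 and 61.9 CPM, and the part of such cells was not tested. Erythroid genes were at 0 outside PRMT1FL mouse 1, which had 2.70 CPM of Hbb-bs. The 5 endothelial genes summed to 45.6 to 57.9 CPM, nearly all Flt1, which other cells also held at 53.0 to 62.9 CPM, with Cldn5, Ly6c1 and Itm2a at 0. The choroid plexus genes summed to 6.31, 0.891, 5.71 and 1.68 CPM, with Ttr the main gene except in PRMT1FL mouse 2 and Enpp2, Clic6 and Kl at 0. The astrocyte genes summed to 9.92, 6.23, 2.28 and 2.95 CPM, with Aqp4 at 0, and were spread over Gfap, Aldoc, Slc1a2 and Gja1 with at most 5 UMIs of a gene in a mouse. The oligodendrocyte genes summed to 78.4, 65.9, 73.0 and 65.2 CPM, with Mog at 0 and Cnp the main gene, and to 65.9 to 130.2 CPM in other cells.

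Within the microglia-low members 2 kinds of cell were seen. MHC class II transcripts (Cd74, H2-Aa, H2-Eb1 and H2-Ab1 together) fell into a high and a low range, and 17 of 58, 13 of 33, 19 of 28 and 23 of 42 cells lay above 50 UMIs per 10000. Few cells lay between 20 and 100 UMIs per 10000, namely 3, 5, 3 and 5. The threshold was set after the values were seen, and the differences below are a description. The 12 further BAM genes had a median of 83.3, 92.6, 65.9 and 47.3 UMIs per 10000 in the low cells and of 26.0, 34.0, 30.5 and 23.03 in the high cells, the latter near the microglia-high members. Within the microglia-low members the higher medians of these BAM genes thus belonged to the low cells. The low cells were the smaller part of the microglia-low members in both PRMT1Cx3cr1-KO mice. Single microglia-high members also reached such levels, for example 190.6 UMIs per 10000 in a cell of PRMT1FL mouse 1 and 160.28 in a cell of PRMT1Cx3cr1-KO mouse 2.

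**Figure D2:**
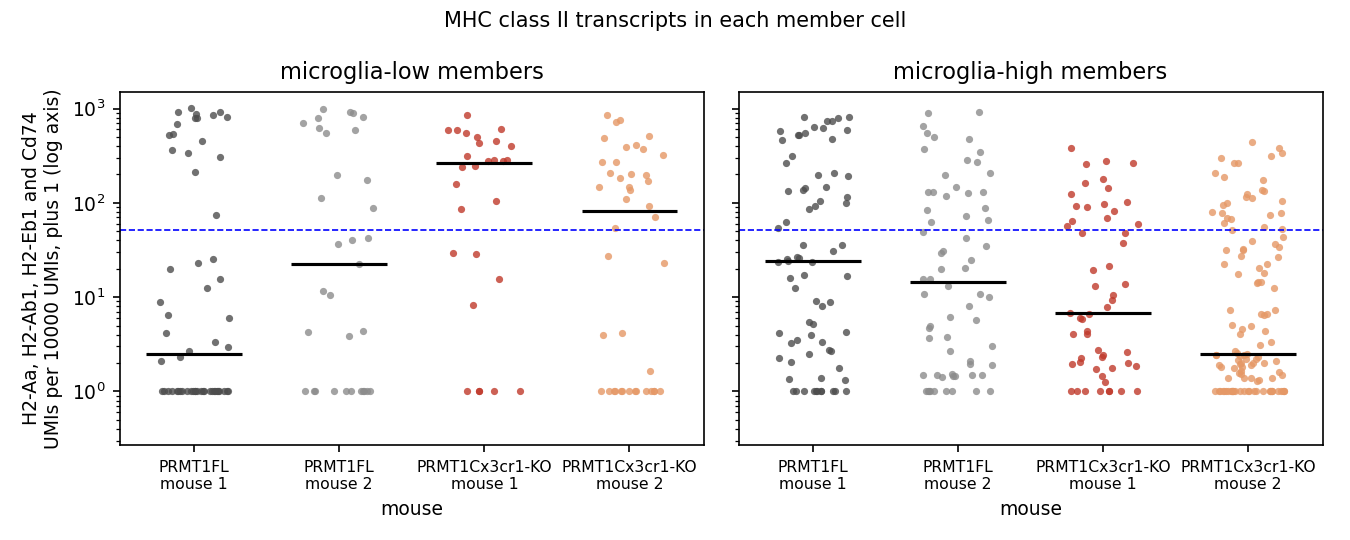
Each point is 1 member cell, by mouse on the x axis, with the summed UMIs of Cd74, H2-Aa, H2-Eb1 and H2-Ab1 per 10000 UMIs, plus 1, on a log y axis. The left panel holds microglia-low and the right panel microglia-high members, black bars are medians and the dashed line is 50 UMIs per 10000. Microglia-low members split into a high and a low range in all 4 mice, and the high range reaches further up in the PRMT1FL mice.

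Several receptors and secreted proteins known from resident BAMs had higher values in the MHC class II-low cells. Lyve1, a gene of the rule, was at 701, 405, 346 and 467 CPM in them and at 17.0, 205, 11.2 and 23.2 CPM in the high cells. Folr2, a folate receptor of tissue macrophages, was at 494, 621, 238 and 240.3 CPM in low and at 17.0, 220.3, 22.5 and 77.5 CPM in high cells. Slc40a1, the iron exporter ferroportin, was at 169, 165, 152 and 54.9 CPM in low cells and at 0, 0, 0 and 15.5 CPM in high cells. Fcna (ficolin A, a lectin of the complement system) was at 214, 304, 86.6 and 68.7 CPM in low cells and at 0, 15.7, 0 and 0 CPM in high cells, though without the deepest low cell of PRMT1FL mouse 2 its level in that mouse was 14.8 CPM. Cd209f, Ccl24, Cd38 and the complement gene C4b also had higher values in the low cells of every mouse. Cbr2, also of the rule, was at 572, 595, 368 and 185 CPM in low cells against 84.9, 393, 78.7 and 69.7 CPM in high cells. The deepest low cell held 10.04%, 14.4%, 26.2% and 37.4% of the UMIs of its set, and in PRMT1Cx3cr1-KO mouse 2 it had 54404 UMIs. Without it, the low cells of that mouse had Lyve1 at 745 CPM, Folr2 at 296 CPM, Slc40a1 at 87.7 CPM and Cbr2 at 296 CPM.

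The MHC class II-high cells had Ccr2 at 560.3, 173, 427 and 387 CPM, whereas low cells held it at 0, 0, 129.9 and 61.8 CPM, the last of these from the deepest cell alone. H2-DMa, which loads peptides on MHC class II, was at 899.8, 755, 708 and 721 CPM in high cells and at 104, 63.3, 108 and 213 CPM in low cells. Il1b, an inflammatory cytokine, was at 3362, 2989, 1539 and 1681 CPM in high cells and at 312, 139, 628 and 41.2 CPM in low cells, higher in the high cells of every mouse. Mrc1, which the rule required of every member, was at 985, 1086, 966 and 953 CPM in high cells and at 1585, 1519.9, 1104 and 947 CPM in low cells. Among high cells alone, H2-Aa was at 12224 and 9927 CPM in PRMT1FL mice, against 6090.1 and 4897 CPM in PRMT1Cx3cr1-KO mice. Cd74, the invariant chain, was at 34143 and 30490.4 CPM against 17315 and 13451 CPM in the same cells. Both genes set the high range, so their levels in these cells are a description. Low cells made up 41 of 58 and 20 of 33 microglia-low members in PRMT1FL mice, against 9 of 28 and 19 of 42 in PRMT1Cx3cr1-KO mice.

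The first question between genotypes was whether members were more or less frequent. They made up 1.16% of passing cells in PRMT1FL mouse 1 (exact binomial 95% interval 0.967% to 1.37%) and 1.21% in PRMT1FL mouse 2 (0.986% to 1.47%). In PRMT1Cx3cr1-KO mice they made up 0.800% (0.638% to 0.991%) and 1.49% (1.27% to 1.73%), so the 2 values lay on either side of the PRMT1FL mice. The means were 1.18% ± 0.0400 (SD, n = 2) and 1.14% ± 0.485 (SD, n = 2), and an exact permutation test over mice gave a 2-sided p = 1, where 0.333 is the smallest value that 2 against 2 mice allow. The interval covers counting error only.

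Shares were also taken at a fixed depth. After each cell was thinned to 2000 UMIs and shallower cells were left out (1076, 649, 1093 and 965 cells), the rule found 62 of 10351, 40 of 7521, 22 of 9277 and 41 of 9937 cells. The shares were 0.599% and 0.532% in PRMT1FL mice, against 0.237% and 0.413% in PRMT1Cx3cr1-KO mice, and both PRMT1Cx3cr1-KO values lay below both PRMT1FL values. The difference of the means was -0.80 as a log2 ratio, and the exact permutation p was 0.333, the smallest possible. The effects of thinning and of leaving out shallow cells were not separated. Microglia-low members alone were at 0.508% and 0.404% in PRMT1FL mice, against 0.270% and 0.385% in PRMT1Cx3cr1-KO mice, with the same exact permutation p of 0.333. A share within a sort does not tell fewer BAMs from more microglia.

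**Figure D3:**
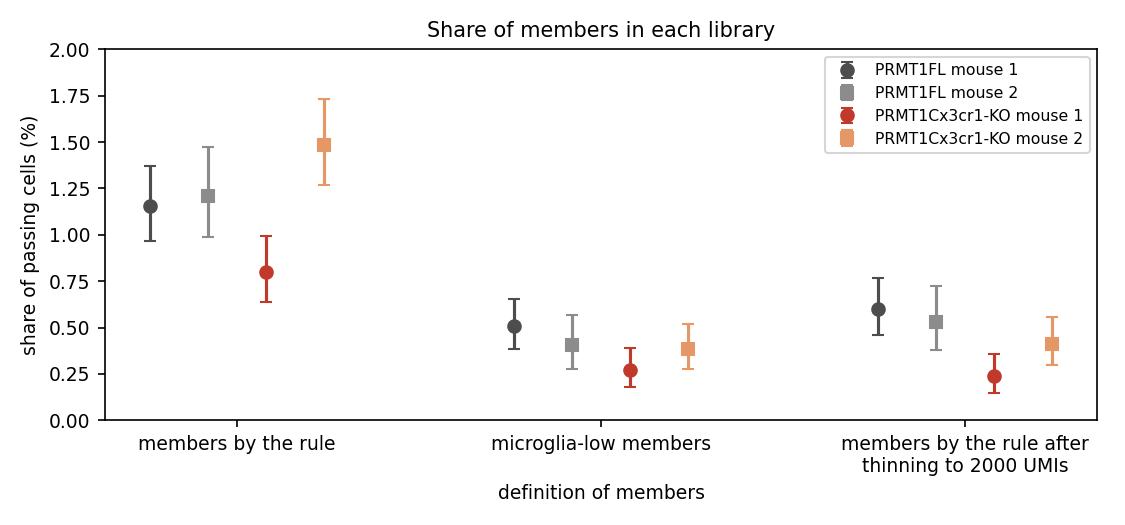
The y axis gives the share of passing cells in percent, the x axis 3 ways to define members, symbols the 4 mice, and bars the exact binomial 95% interval. By the rule, the 2 PRMT1Cx3cr1-KO mice lie at 0.800% and 1.49%, on either side of the PRMT1FL mice, while both lie below them for microglia-low members and after thinning.

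Prmt1 itself (chromosome 7, 44975989 to 44986568) was examined first among genes. It was at 85.7 and 78.4 CPM in PRMT1FL members and at 61.6 and 58.9 CPM in PRMT1Cx3cr1-KO members, lower in both PRMT1Cx3cr1-KO mice. UMIs were summed over members per mouse and tested with edgeR's quasi-likelihood test, which gave a log2 fold change of -0.46 (SE 0.17, adjusted p = 0.337 over 8037 genes), past no threshold. In other cells it was at 91.0, 83.9, 70.4 and 70.9 CPM (log2 fold change -0.35, edgeR adjusted p = 0.0443), and the difference between members and other cells was -0.07 (edgeR adjusted p = 1). In microglia-low members Prmt1 rested on 17, 5, 14 and 15 UMIs, at 79.9, 35.1, 104 and 54.6 CPM (log2 fold change 0.33, SE 0.50, edgeR adjusted p = 0.83), and a difference was not detectable at this depth. The 3′ tags are counted per gene and do not show whether the floxed exons were removed, so this checks the labels only in part. Of the 10 genes listed for the PRMT family, which include Wdr77 beside the PRMTs, 8 were tested in members and none passed the threshold.

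Between genotypes, 68 of 8037 genes (0.846%) passed an adjusted p of 0.05 in members, 26 higher (0.324%) and 42 lower (0.523%) in PRMT1Cx3cr1-KO mice. The genes that fell included the near-identical pair Hspa1a and Hspa1b, 4 MHC class II genes, the receptors Stab1, Folr2 and Clec10a and 3 interferon-induced genes, while Tnf, the metallothionein Mt1 and the microglial gene P2ry12 were among those that rose. Of the 42 lower genes, 4 (Cbr2, Pf4, Cd163 and F13a1) belong to the rule and are left to the description above. The number of calls moved with single mice: without PRMT1Cx3cr1-KO mouse 2, 6 genes passed, and 5 of the 68 remained (Hspa1a, Hspa1b, H2-Eb1, Cd74 and Tnf), while 248 passed without PRMT1Cx3cr1-KO mouse 1 and 162 without PRMT1FL mouse 2. Leaving out a mouse leaves 1 mouse in its genotype, so the spread there comes from the other genotype alone. A lost call need not be a smaller fold. Over these fits Itgax ranged from -1.91 to -1.68 and Fn1 from 1.05 to 1.25, while Ccl8 ranged from -2.29 to -1.22. DESeq2 called 23 genes, and 8 of the 68 were also called when only microglia-low members were summed (11 of 2554 genes, 0.431%, 2 higher, 0.0783%, and 9 lower, 0.352%). Of the 68, 50 could be tested there. In members chosen after thinning to 2000 UMIs, 14 of 3423 genes passed (0.409%), 8 higher (0.234%) and 6 lower (0.175%). Of 33 called genes named below, DESeq2 did not call Hspa1b, Cd74, Maf, Clec10a, C4b, Ccl12, Oasl2, Ifitm3, Klf4, Cst7, Siglech, Cx3cr1 and Tmsb4x and gave no adjusted p for Timd4, Lyz1 and Igfbp5, and Hspa1b, Ccl8, Klf4, C4b and Mt1 were the 5 still called after thinning. With doublet-marked cells removed, Klf2, Klf4, Maf, Cst7, Cx3cr1, Tnfaip2, Pla2g7 and Tmsb4x did not pass.

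**Figure D4:**
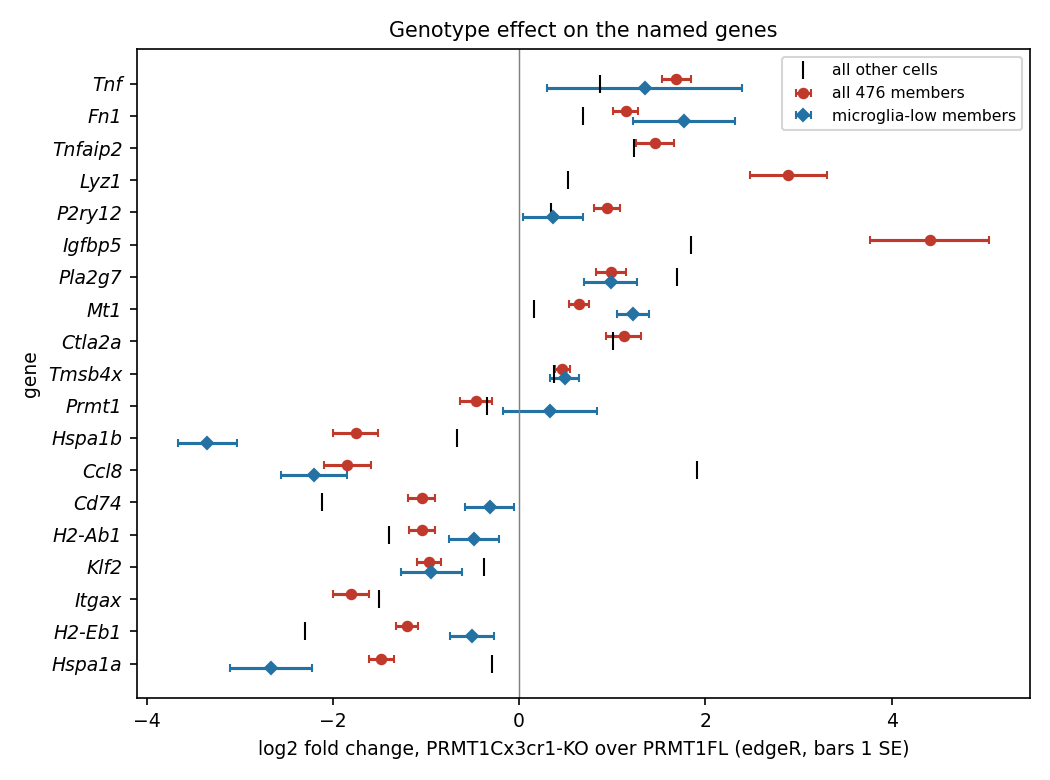
The x axis gives the log2 fold change of PRMT1Cx3cr1-KO over PRMT1FL for the genes on the y axis, with bars of 1 SE from edgeR. Circles are all 476 members, diamonds microglia-low members where the gene could be fitted, and ticks all other cells. Hspa1a, Hspa1b and Ccl8 lie well below 0 in both sets of members, while H2-Eb1, H2-Ab1 and Cd74 lie closer to 0 in microglia-low members than in all members.

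A pair of heat shock genes fell in members. Hspa1a, an inducible HSP70 chaperone, was at 284 and 308 CPM in PRMT1FL members and at 102 and 110.2 CPM in PRMT1Cx3cr1-KO members (log2 fold change -1.48, SE 0.13, edgeR adjusted p = 0.000235). Its neighbour Hspa1b was at 307 and 348 CPM against 51.3 and 127 CPM (-1.76, SE 0.24, edgeR adjusted p = 0.00432). In microglia-low members Hspa1a was at 878, 716, 37.0 and 175 CPM (-2.66, SE 0.44, edgeR adjusted p = 0.0481) and Hspa1b at 770.4, 863, 44.4 and 94.6 CPM (-3.35, SE 0.32, edgeR adjusted p = 0.00284), and both groups of mice were apart there too. In other cells Hspa1a was at 48.4, 67.5, 42.4 and 54.9 CPM, where the groups overlapped, and Hspa1b at 60.3, 89.0, 38.3 and 58.3 CPM, where they did not (-0.67, SE 0.24, edgeR adjusted p = 0.169). The 2 genes are near copies, so reads can be assigned to either, and their values are not independent. Both belong to a list of 16 genes that tissue dissociation can induce, of which these 2 fell, 14 did not pass the test and the median log2 fold change was -0.24, against -0.0044 over all 8037 genes. The list summed to 13959, 13486, 14062 and 10222 CPM in members, where the groups overlapped. In microglia-low members it summed to 23929, 24370, 20829 and 12500.2 CPM, lower in both PRMT1Cx3cr1-KO mice, with the same 2 of 16 genes called and a median of -0.41. Without PRMT1Cx3cr1-KO mouse 2 the log2 fold change of Hspa1b in members was -2.68, still called. Fos, an early gene of the same list, was at 2488, 2219, 2226 and 1631 CPM. Dissociation itself was not measured, so its part was not tested.

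The stretches before the 2 start sites are shown because they make plain how alike the pair is. They are the 100 bases up to the start site on the minus strand of chromosome 17 (RefSeq, GRCm38.p6), at chr17:34972157-34972256 for Hspa1a and chr17:34959239-34959338 for Hspa1b, and 99 of 100 bases are identical. Capitals mark CTGATTGG, the core of a Y box, a CCAAT-type element, searched on both strands.
Hspa1a: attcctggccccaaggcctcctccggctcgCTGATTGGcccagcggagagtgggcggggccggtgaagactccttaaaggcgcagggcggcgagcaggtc
Hspa1b: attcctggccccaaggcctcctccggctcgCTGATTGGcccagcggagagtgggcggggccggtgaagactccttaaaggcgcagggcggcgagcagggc

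MHC class II genes fell in members. Cd74 was at 5359 and 4681 CPM in PRMT1FL members and at 2959 and 1942 CPM in PRMT1Cx3cr1-KO members (log2 fold change -1.05, SE 0.14, edgeR adjusted p = 0.00395). H2-Eb1, a beta chain, was at 1468, 1295, 682 and 535 CPM (-1.20, SE 0.12, edgeR adjusted p = 0.000368). H2-Ab1, the other beta chain, was at 1312, 1120.3, 699 and 498 CPM (-1.05, SE 0.14, edgeR adjusted p = 0.00395), and H2-Aa, the alpha chain that pairs with it, at 1846, 1575, 1049.8 and 728 CPM (-0.96, SE 0.14, edgeR adjusted p = 0.00449). For all 4 genes both PRMT1Cx3cr1-KO mice lay below both PRMT1FL mice. Of the 10 listed class II genes, the regulators Ciita and Rfx5 included, 9 were tested. Of these, 4 fell, 5 did not pass the test, and the median log2 fold change was -0.72. H2-DMa was at 324, 344, 340.1 and 322 CPM and H2-DMb1 at 205, 185, 170.0 and 138 CPM. Without PRMT1Cx3cr1-KO mouse 2, H2-Aa and H2-Ab1 did not pass the test, and in members chosen after thinning all 4 lost the call, with log2 fold changes of -0.10 for H2-Aa, -0.11 for H2-Ab1, -0.03 for H2-Eb1 and -0.12 for Cd74.

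The class II fold changes lay closer to 0 in microglia-low members. There H2-Aa was at 3401 and 4526 CPM in PRMT1FL mice, against 4016 and 2392 CPM in PRMT1Cx3cr1-KO mice, so the groups overlapped (log2 fold change -0.24, SE 0.24, edgeR adjusted p = 0.733). Cd74 was at 9550.2, 14293, 11583 and 6596 CPM there (-0.32, SE 0.26, edgeR adjusted p = 0.658), and H2-Eb1 at 2598, 3958, 2596 and 1780.0 CPM (-0.51, SE 0.24, edgeR adjusted p = 0.387). None of the 6 class II genes tested in microglia-low members passed the threshold, and their median was -0.28. The share of microglia-low members among all members also differed between the mice, at 43.9%, 33.3%, 33.7% and 25.9%, and class II levels were higher in them than in microglia-high members. In microglia-high members the 10 class II genes summed to 8654, 6699, 3082 and 3057 CPM, against 18635, 26994, 21709 and 13035 CPM in microglia-low members. How far the fall in all members comes from this mix was not tested. In the MHC class II-high cells among the microglia-low members, H2-Eb1 was at 9372, 8858, 3944 and 3657 CPM. Such cells made up 19 of 28 and 23 of 42 microglia-low members in PRMT1Cx3cr1-KO mice, against 17 of 58 and 13 of 33 in PRMT1FL mice. H2-Eb1 is among the genes that set the high range, so these values are a description. Their part in the fold changes was not tested.

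**Figure D5:**
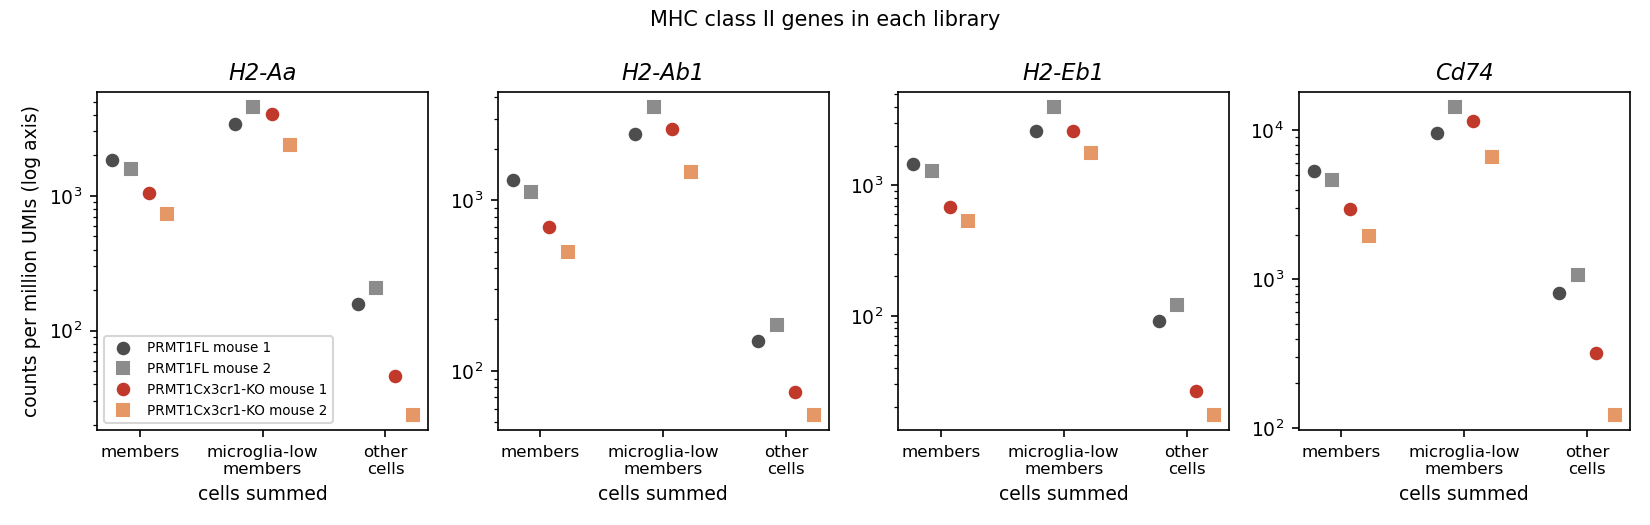
The y axis gives CPM on a log axis for the 4 genes, each in members, microglia-low members and all other cells on the x axis, with 1 symbol per mouse. The genotypes are apart in all members and in other cells, while in microglia-low members they overlap for H2-Aa, H2-Ab1 and Cd74 and nearly touch for H2-Eb1.

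Promoters are shown for the 2 class II genes that fell and had an entry. Both hold the Y box core, in capitals, within 100 bases of the start site, at chr17:34287824-34287923 on the minus strand for H2-Aa and chr17:34305767-34305866 on the plus strand for H2-Eb1 (RefSeq, GRCm38.p6). It starts 51 bases before the start site in H2-Aa and 62 bases in H2-Eb1. The Y box is part of the promoter module that class II genes are known to share.
H2-Aa: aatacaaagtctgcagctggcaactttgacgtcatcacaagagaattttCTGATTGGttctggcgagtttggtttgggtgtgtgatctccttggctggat
H2-Eb1: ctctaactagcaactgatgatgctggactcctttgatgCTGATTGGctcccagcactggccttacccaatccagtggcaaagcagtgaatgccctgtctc
Of the 10 listed class II genes 7 had an entry, the regulator Rfx5 among them. The core lay in this stretch in 3 of these, H2-Oa being the third. It was present on either strand in 2.51% of all 32851 such stretches. A match is a description of letters and not of a bound factor.

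Compared with other cells, 4 of the 10 listed class II genes fell less in members by edgeR. In other cells H2-Aa was at 158, 209, 46.1 and 23.9 CPM (log2 fold change -2.43, edgeR adjusted p = 0.0221), where 759 of 14737 genes (5.15%) were called, 197 higher (1.34%) and 562 lower (3.81%). The difference of the genotype effect, members minus other cells, was tested with edgeR over the 8 sums with the library as a block. It was 1.56 for H2-Aa (SE 0.10, edgeR adjusted p = 1.66e-54), 1.15 for H2-Eb1 (SE 0.10, edgeR adjusted p = 1.51e-26) and 1.24 for Cd74 (SE 0.08, edgeR adjusted p = 6.29e-48), and H2-Ab1 was at 0.39 (edgeR adjusted p = 0.0131). Without PRMT1Cx3cr1-KO mouse 2 it was 0.82 for Cd74, still called, and DESeq2 did not call Cd74 or H2-Ab1. In microglia-low members the difference was 2.34 for H2-Aa, 1.93 for H2-Eb1, 2.04 for Cd74 and 1.01 for H2-Ab1. After thinning it was 2.30, 2.20, 2.20 and 1.41 in this order of genes. Of the 10 class II genes tested over all members, 4 were called, all in this direction, among 148 of 13910 genes (1.06%), of which 51 were higher in members (0.367%). The call did not hold with limma on the 4 within-library ratios, where each library counts once: the adjusted p was 0.664 for H2-Aa, 0.737 for H2-Eb1, 0.671 for Cd74 and 0.862 for H2-Ab1. That fit called 0 genes (1034 at an unadjusted p under 0.05), with 47 called by DESeq2. Without PRMT1Cx3cr1-KO mouse 2 the edgeR count was 55, and without PRMT1FL mouse 1 it was 88.

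Several scavenger receptors and lectins of BAMs fell. Stab1 was at 627 and 538 CPM in PRMT1FL members and at 366 and 289 CPM in PRMT1Cx3cr1-KO members (log2 fold change -0.86, SE 0.13, edgeR adjusted p = 0.00799), and in microglia-low members at 1188, 1221, 533 and 542 CPM (-1.08, SE 0.19, edgeR adjusted p = 0.0481). Folr2 was at 131, 117, 67.3 and 54.7 CPM (-1.07, SE 0.17, edgeR adjusted p = 0.00882), and in microglia-low members at 362, 442, 96.2 and 164 CPM (-1.47, edgeR adjusted p = 0.0877). Clec10a was at 119, 54.3, 26.2 and 8.84 CPM (-2.63, SE 0.42, edgeR adjusted p = 0.00936), and in microglia-low members at 389.9, 232, 88.8 and 29.1 CPM (-2.53, edgeR adjusted p = 0.0515). Timd4, a phosphatidylserine receptor for engulfing dead cells, was at 28.0, 16.9, 2.28 and 4.21 CPM (-2.60, SE 0.45, edgeR adjusted p = 0.0141) and rested on 37 cells. The mice of both genotypes were apart for all 4 genes, in all members and in microglia-low members, but Folr2, Clec10a and Timd4 (edgeR adjusted p = 0.103) did not pass the test in the latter. The MHC class II-low cells, in which Folr2 was higher, were a smaller part of the microglia-low members in PRMT1Cx3cr1-KO mice, as given above. Within these low cells alone Stab1 was at 1500.2, 1393, 606 and 611 CPM and Clec10a at 442, 380.0, 216 and 41.2 CPM, again lower in both PRMT1Cx3cr1-KO mice, of which mouse 1 had 9 such cells. Without the deepest low cell of PRMT1Cx3cr1-KO mouse 2, that mouse had Stab1 at 942 CPM and Clec10a at 65.8 CPM. Microglia-high members, in which the further BAM genes summed lower, made up 56.1%, 66.7%, 66.3% and 74.1% of all members. The part of either mix in the falls was not tested beyond this. Without PRMT1Cx3cr1-KO mouse 2 none of the 4 passed the test (Clec10a at -1.72), and Timd4 did not pass it without PRMT1FL mouse 1 either.

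Of the 12 further BAM genes, all tested, 4 fell (Stab1, Maf, Folr2 and Clec10a), 0 rose and 8 did not pass the test, with a median of -0.51. Maf, a transcription factor of tissue macrophages, was at 722, 695, 532 and 468 CPM (-0.52, SE 0.11, edgeR adjusted p = 0.0382) and did not pass without PRMT1FL mouse 1 or PRMT1Cx3cr1-KO mouse 2. Ms4a7 was at 315, 395, 300.1 and 258 CPM, the lectin Mgl2 at 218, 123, 164 and 94.7 CPM, and Cd209f at 46.9, 27.6, 29.7 and 32.0 CPM. Of 17 scavenger and endocytic genes tested, 3 fell (Stab1, Clec10a and Timd4) and 14 did not pass the test, with a median of -0.46. None of 12 iron and haem genes passed the test (median -0.10), with Fth1 at 7418, 7835, 8588 and 10113 CPM. Of 8 complement genes tested, C4b fell (84.8, 82.8, 45.6 and 31.1 CPM, -1.23, SE 0.21, edgeR adjusted p = 0.0117), and the median was -0.09. C1qa was at 7257, 7781, 7421 and 7994 CPM.

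Among 16 chemokine and chemokine receptor genes, 2 fell and 14 did not pass the test (median -0.16). Ccl8, a chemokine for monocytes and T cells, was at 109 and 124 CPM in PRMT1FL members and at 50.2 and 24.0 CPM in PRMT1Cx3cr1-KO members (-1.85, SE 0.25, edgeR adjusted p = 0.00418). In microglia-low members it was at 272, 351, 88.8 and 47.3 CPM (-2.20, SE 0.35, edgeR adjusted p = 0.0481), with the genotypes apart there as well. Without the deepest cell of each set, Ccl8 was at 282, 296, 264 and 65.8 CPM in their MHC class II-low cells. In their high cells it was then at 257, 196, 13.7 and 60.1 CPM, and the part of this mix was not tested. Ccl12 was at 765, 1076, 604 and 404 CPM (-0.90, SE 0.18, edgeR adjusted p = 0.0338), but at 1325, 975, 695 and 1107 CPM in microglia-low members, where the groups overlapped. Neither passed the test without PRMT1Cx3cr1-KO mouse 2, where the log2 fold change of Ccl8 was -1.22. Ccl7 was at 137, 149.6, 159 and 63.1 CPM and Ccl24 at 69.4, 41.9, 108 and 66.9 CPM. Ccr2 was at 58.6, 40.1, 77.6 and 75.3 CPM in members, and at 155, 77.2, 325 and 215 CPM in microglia-low members, beside the larger part of MHC class II-high cells in the PRMT1Cx3cr1-KO mice given above.

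Of 15 interferon-induced genes tested, 3 fell, 12 did not pass the test and the median was -0.90. Ifitm3, an antiviral membrane protein, was at 738, 818, 576 and 454 CPM (-0.62, SE 0.12, edgeR adjusted p = 0.0345). Oasl2 was at 83.0, 110.4, 60.5 and 32.8 CPM (-1.21, SE 0.25, edgeR adjusted p = 0.0414), and Ifit3 at 73.9, 131, 49.1 and 32.0 CPM (-1.45, SE 0.27, edgeR adjusted p = 0.0225). The genotypes did not overlap for these 3 genes. In microglia-low members 12 of the listed interferon genes were tested and none passed (median -0.70), with Ifitm3 at 1546, 1712, 917 and 961 CPM (-0.71, SE 0.18, edgeR adjusted p = 0.127). The list summed to 3415, 4982, 3417 and 2708 CPM there, where the groups overlapped. In other cells, Ifitm3 was at 335, 422, 431 and 262 CPM and did overlap. Irf7, which drives interferon genes, was at 87.5, 103, 70.7 and 45.4 CPM in members, past no threshold. None of the 3 called genes passed the test without PRMT1Cx3cr1-KO mouse 2, where the log2 fold change of Oasl2 was -0.68.

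The transcription factors Klf2 and Klf4, which hold macrophages in a quiet state, fell together with Maf among 12 lineage factors tested (median -0.09). Klf2 was at 587, 736, 361 and 323 CPM (-0.97, SE 0.13, edgeR adjusted p = 0.00395), and Klf4 at 112, 129, 78.7 and 37.4 CPM (-1.23, SE 0.26, edgeR adjusted p = 0.0428). In microglia-low members Klf4 was at 287, 435, 88.8 and 91.0 CPM (-1.90, SE 0.32, edgeR adjusted p = 0.0481) and Klf2 at 747, 1474, 673 and 429.5 CPM (-0.94, SE 0.33, edgeR adjusted p = 0.241), with the genotypes apart for both. Without the deepest microglia-low cell of each mouse Klf2 was at 583, 1144, 654 and 531 CPM, and the genotypes overlapped. Klf4 was higher in the MHC class II-low cells (377, 595, 216 and 124 CPM) than in the high cells (50.9, 236, 22.5 and 54.2 CPM), beside the smaller part of low cells in PRMT1Cx3cr1-KO mice, and the part of this mix was not tested. Neither passed without PRMT1Cx3cr1-KO mouse 2, where the log2 fold change of Klf4 was -0.62. Spi1 and Irf8 were among the 9 factors that did not pass the test.

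Tnf, an inflammatory cytokine, rose from 96.5 and 102 CPM in PRMT1FL members to 369 and 287 CPM in PRMT1Cx3cr1-KO members (log2 fold change 1.69, SE 0.16, edgeR adjusted p = 0.000235). In microglia-low members it was at 70.5, 182, 636 and 18.2 CPM, so 1 PRMT1Cx3cr1-KO mouse lay above and 1 below the PRMT1FL mice. In other cells it was at 211, 229.7, 486 and 338 CPM, where both PRMT1Cx3cr1-KO mice also lay above. In members chosen after thinning the log2 fold change was -0.37. Of 7 cytokine genes tested, Tnf alone was called, and the median was -0.20. Mt1, a metal-binding protein, was at 650.1, 680.4, 1147 and 958 CPM (0.65, SE 0.11, edgeR adjusted p = 0.0117), and in microglia-low members at 1024, 1179, 2552 and 2319 CPM (1.22, SE 0.17, edgeR adjusted p = 0.0465), so both PRMT1Cx3cr1-KO mice lay above there too. Pla2g7, a phospholipase that breaks down platelet-activating factor, was at 73.9, 60.6, 127 and 139 CPM (0.98, SE 0.16, edgeR adjusted p = 0.0117), and at 159.7, 161, 244 and 346 CPM in microglia-low members. Mt1 and Pla2g7 were not called without PRMT1Cx3cr1-KO mouse 2.

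P2ry12, the ADP receptor of microglia, was at 253 and 319.7 CPM in PRMT1FL members and at 603 and 514 CPM in PRMT1Cx3cr1-KO members (0.94, SE 0.14, edgeR adjusted p = 0.00433). Among the 9 microglial genes it rose, Siglech (320.1, 352, 227 and 194 CPM) and Cx3cr1 (1330.0, 1564, 955 and 1023 CPM) fell, and 6 did not pass the test, with a median of 0.31. In other cells Siglech was at 411, 429, 290.4 and 273 CPM and Cx3cr1, whose promoter drives the recombinase, at 1429, 1525, 845 and 834 CPM. Only the PRMT1Cx3cr1-KO mice carried the driver, so its effect on Cx3cr1 cannot be told apart from that of Prmt1 loss. Siglech and Cx3cr1 are among the 9 genes that set the microglia-low split. How far their lower levels moved that split between genotypes was not tested. In microglia-low members, which these genes define, Cx3cr1 was at 389.9, 477, 466 and 411 CPM and P2ry12 at 146, 91.2, 163 and 138 CPM, both with overlapping genotypes. The 10 genes of smallest p among the 26 that rose also held Tmsb4x, an actin-binding peptide (12483, 14909, 17913 and 20149 CPM), Fn1, fibronectin (115, 131, 272 and 276 CPM), Tnfaip2 (34.3, 51.7, 105 and 129 CPM), Ctla2a (52.3, 42.7, 90.1 and 114 CPM), Lyz1 (7.21, 2.67, 26.2 and 43.3 CPM) and Igfbp5 (0, 1.78, 22.8 and 20.2 CPM). Lyz1 was found in 27 member cells, 1 of which held 40.9% of its UMIs, and Igfbp5 in 29 cells, with a log2 fold change of 4.41 that became 7.94 without PRMT1FL mouse 2. Itgax, CD11c, fell with 88.4, 102, 29.7 and 26.1 CPM (-1.81, SE 0.19, edgeR adjusted p = 0.000696), beside 127, 132, 64.1 and 29.5 CPM in other cells. Of the genes in this paragraph, none was called without PRMT1Cx3cr1-KO mouse 2.

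Besides the lists above, no gene passed the test in the lists of MHC class I (12 tested, median -0.42, B2m at 2893, 3279.9, 2621 and 2191 CPM), proliferation (14 tested, median 0.09, Mki67 at 57.7, 40.1, 50.2 and 45.9 CPM) and growth factor receptors (12 tested, median 0.00, Csf1r at 1638, 1639, 1594 and 1396 CPM). Of 15 genes linked to microglia in disease, 2 fell (Itgax and Cst7) and 13 did not pass the test, with a median of -0.05. Cst7, cystatin F, was at 1279, 1018, 824 and 752 CPM in members and at 517, 161, 451 and 382 CPM in microglia-low members.

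By edgeR the genotype effect was also lower in members than in other cells for 97 genes (0.697%), among them genes of BAMs and chemokines. With limma on the within-library ratios no gene was called. Ms4a7 was at 315, 395, 300.1 and 258 CPM in members but at 14.7, 15.2, 25.8 and 63.6 CPM in other cells (difference -1.83, SE 0.13, edgeR adjusted p = 5.12e-44). Dab2, an endocytic adaptor, was at 574, 488, 459.9 and 307 CPM in members and at 50.9, 46.5, 79.0 and 118 CPM in other cells (difference -1.46, SE 0.11, edgeR adjusted p = 3.49e-34). Ccl2, the ligand of Ccr2, was at 190.3, 175, 161 and 113 CPM in members and at 44.7, 42.2, 86.9 and 84.8 CPM in other cells (difference -1.39, SE 0.14, edgeR adjusted p = 1.07e-20). Ccl8 was at 1.25, 0.715, 2.80 and 4.85 CPM in other cells (difference -3.69, edgeR adjusted p = 5e-21). For Ms4a7 and Dab2 the other cells of PRMT1Cx3cr1-KO mouse 2 were the highest of the 4 mice, and without that mouse the differences were -0.99 for Ms4a7 and -0.87 for Dab2, both still called by edgeR. DESeq2 called neither. This is also the library with 1047 cells that had 3 or more UMIs of the 5 rule genes and no Mrc1. The part of these cells in the differences was not tested.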

How the data were processed

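Single-cell RNA-seq libraries (10x Genomics Single Cell 3′ v2) were made from sorted brain cells of 2 PRMT1FL and 2 PRMT1Cx3cr1-KO mice, and groups were taken from the sample labels. The authors deposited 1 matrix per mouse of raw UMI counts per gene and cell barcode, without doublet calls or cell types. The submitters' processing notes name Cell Ranger 3.1.0, Seurat 3.2.0, Scanpy 1.5.2 and the mm10 genome without their roles, and the annotation is not given in the sources used here. The features match 32285 gene identifiers, and gene positions were read from GENCODE M21 on GRCm38.

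Cells were kept with 200 to 6000 genes and a mitochondrial share of UMIs of up to 10%, and members were selected by the rule given in the report. Since Scrublet (scanpy 1.11.5) set an automatic threshold that marked at most 2 cells in a library, the cells of highest score were marked at 0.8% per 1000 cells, and none were removed. Members and the remaining cells were summed per mouse and tested with edgeR 4.0.16 (filterByExpr, TMM, quasi-likelihood, Benjamini-Hochberg adjusted p under 0.05) in R 4.3.3. The difference of the genotype effect was fitted over the 8 sums with the library as a block. Alternatives used DESeq2 1.42.0, limma 3.58.1, other size factors, no filter, other rule thresholds, 5% mitochondrial UMIs, removal of doublet-marked cells, thinning to 2000 UMIs, microglia-low members and leaving out each mouse. Thinning and the microglia-low split in the gene fits, limma, and levels without the deepest cell of a set were added after the data were seen. Shares were compared by an exact permutation test over mice with Python 3.11.15 and scipy 1.17.1, and intervals are Clopper-Pearson and cover counting error only.

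On simulated data, 3.33%, 37.5% and 98.5% of genes changed by 1.5, 2 and 4-fold were recovered in the genotype comparison (7944 genes). For the difference of the genotype effect, 1.49%, 25.4% and 93.9% were recovered (13817 genes). The simulation used a fixed spread between mice that was not estimated from these data. Its changed genes were drawn only from those well covered in members. The recovered shares therefore need not hold for these data. The genes named are Prmt1, the rule genes, the 10 called genes of smallest p in each direction in each genotype test, the 20 genes of highest ratio to other cells with 20 or more UMIs in the members of every library, and members of 26 gene lists, of which some genes are not reported here. Both the members and the lists were chosen with earlier results of these data known. Each library is labelled as 1 mouse, and no litter, sort day or sequencing batch is given, so that these cannot be told apart from genotype. Promoter stretches are from RefSeq on GRCm38.p6.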

Additional observations from a re-analysis of the deposited data

Results flagged for a closer look

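For 18 genes the difference of the genotype effect, members minus other cells, passed an edgeR adjusted p of 0.05 and was among the 10 of smallest p in its direction, rule genes left out. Each value is in log2 units. With limma on the 4 within-library ratios none of them passed, with adjusted p from 0.661 to 0.789. DESeq2 called 9 of the 18. Leaving out 1 mouse moved 8 of them by over 1.5 times or ended the call: Cxcl9 ranged from 0.10 to 14.66, Apoc1 from 0.31 to 1.35, Spp1 from 0.58 to 1.37, Cd74 from 0.82 to 1.63, Apod from 5.60 to 8.45, Ms4a7 from -2.46 to -0.99, Dab2 from -1.98 to -0.87 and Stab1 from -1.40 to -0.62. Apod and Stab1 were not called without PRMT1Cx3cr1-KO mouse 2, Cxcl9 without PRMT1Cx3cr1-KO mouse 1, and Apoc1 without PRMT1FL mouse 1 or PRMT1Cx3cr1-KO mouse 1.

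The genotype effect was higher in members for the MHC class II genes H2-Aa (1.56), Cd74 (1.24) and H2-Eb1 (1.15). It was also higher for Rcan1, an inhibitor of calcineurin, at 2.17, for Spp1, osteopontin, at 1.004, for Tnf at 0.90 and for Apoc1, a lipoprotein component, at 0.78. The Tnf difference turned to -1.18 after thinning and was 0.22 in microglia-low members. That of Spp1 was 2.75 after thinning and 2.53 in microglia-low members. Spp1 was at 875, 1181, 1252 and 2435 CPM in members, and 1 cell held 21.4% of its member UMIs. The differences of Apod (7.65), Cxcl9 (2.52) and Mmp9 (6.05) rested on few cells. Apod was found in 9 member cells, 1 of which held 64.7% of its UMIs. Cxcl9 was found in 8 member cells, with 35.3% of its UMIs in 1 of them. Mmp9, a gelatinase abundant in neutrophils, was found in 24 member cells. In other cells it was at 1.48, 4.01, 0.0244 and 0.0640 CPM, beside neutrophil numbers of 25, 43, 0 and 2, whose part in the difference was not tested.

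The genotype effect was lower in members for the BAM genes Ms4a7 (-1.83), Dab2 (-1.46) and Stab1 (-1.04). It was lower for the chemokines Ccl8 (-3.69), Ccl2 (-1.39), Cxcl2 (-1.20) and Ccl12 (-1.15), and for Wfdc17, a small secreted protein, at -1.33. Wfdc17 was at 423, 289, 311 and 380.4 CPM in members and at 56.2, 64.0, 104 and 213 CPM in other cells, where PRMT1Cx3cr1-KO mouse 2 was the highest.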

How the results depend on the processing

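The log2 ratio of the members' share between genotypes was -0.05 and became 0.093 with a sum of 2 or more UMIs. It was -0.33 with a sum of 5 or more, -0.15 without doublet-marked cells, -0.48 for microglia-low members and -0.80 after thinning. Over all members it ranged from -0.56 without PRMT1Cx3cr1-KO mouse 2 to 0.33 without PRMT1Cx3cr1-KO mouse 1. The 68 genes called between genotypes became 23 with DESeq2, 224 with no filter, 122 and 147 with a sum of 2 or more and of 5 or more, 43 without doublet-marked cells, 11 in microglia-low members, 14 in members chosen after thinning, and 6 to 248 when 1 mouse was left out. The Prmt1 effect of -0.46 became 0.33 in microglia-low members and was negative, from -0.60 to -0.39, under the other alternatives. The class II median of -0.72 became -0.98 and -0.83 with a sum of 2 or more and of 5 or more, -0.28 in microglia-low members, -0.066 after thinning, and -0.85 to -0.71 when 1 mouse was left out. The 148 genes of the difference became 47 with DESeq2, 92 without doublet-marked cells, 94 in microglia-low members, 31 after thinning, 0 with limma, and 55 to 153 when 1 mouse was left out. In the genotype comparison Tnf turned to -0.37 after thinning, and in microglia-low members Cx3cr1 turned to 0.095 and Cst7 to 0.32. The difference from other cells turned to -1.18 for Tnf after thinning. For Cxcl9, found in 8 member cells, it was -8.96 with an SE of 9.37, so its direction was not set. The causes were not tested. The replicate numbers are only shared, since the mice numbered 1 did not deviate together (correlation -0.0609 over 8037 genes). With 2 mice per genotype, the mice numbered 2 mirror them and give no separate value. A replicate block gave 226 called genes in place of 68, and all 33 named and called genes were called with it. Of these 33, 5 were still called without PRMT1Cx3cr1-KO mouse 2 and 30 without PRMT1FL mouse 1, while all 33 were called without either of the other mice. Microglia-low members held few cells, from 28 to 58 per mouse, and 2554 genes could be tested in them.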

Other observations

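Cells with 3 or more UMIs of F13a1, Cbr2, Lyve1, Cd163 and Pf4 but no Mrc1 UMI made up 0.971% and 1.42% of passing cells in PRMT1FL mice, against 2.54% and 9.60% in PRMT1Cx3cr1-KO mice. In the latter, Pf4 gave 96.3% and 97.6% of their UMIs of the 5 genes. Their Ms4a7 level was 26.8, 61.7, 57.2 and 90.3 CPM. These cells entered all other cells in each comparison above.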
